A study of Homo sapiens with 6 samples.

Results

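The genes of collagens and of the proteins that bind them were examined in 22Rv1 cells, an established line of human prostate cancer. The rule took every gene symbol made of COL, digits, A and digits, together with 10 small leucine-rich proteoglycans and 5 further matrix proteins (FN1, SPARC, POSTN, VCAN and TNC). It kept those with a count above 0 in 3 or more of 6 libraries. Of 59 symbols that matched, 56 were kept: 43 collagen chains, 8 small leucine-rich proteoglycans and the 5 others, out of 57500 genes in the count files. KERA and OMD, both small leucine-rich proteoglycans, had 0 reads in every library, which allows up to 0.0563 to 0.106 CPM (counts scaled to the size of the library) when a count of 0 is read as at most 3. COL6A5 had 2 reads in liver-derived library 1 and 0 elsewhere.

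RNA sequencing compared 3 libraries of wild-type 22Rv1 control cells with 3 libraries of 22Rv1 cells derived from a liver metastasis. The cells were grown in RPMI medium with 10% fetal bovine serum, and the labels give no added agent or engineered allele for either group. The labels do not name the host of the metastasis, do not say whether the derived cells are a clone, and name no separate derivations. What belongs to the liver thus cannot be told apart from whatever else separates both groups of cells. The series' design text calls the libraries of a group biological replicates and also speaks of a further condition, not analysed here. The sources name no separate cultures, so p-values measure the spread between these libraries, which may be technical.

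Collagens are secreted proteins of 3 chains wound into a triple helix. Fibrillar chains build the cables of connective tissue, type IV chains build the sheet of basement membranes on which epithelial cells rest, and fibril-associated chains sit on the surface of fibrils. Small leucine-rich proteoglycans such as lumican and decorin bind collagen fibrils and regulate their assembly. In the prostate, fibroblasts and smooth muscle make most of the fibrillar matrix, and epithelial cells contribute to the basement membrane.

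Library totals ranged from 28395265 counts (liver-derived library 2) to 53275252 counts (liver-derived library 1). Wild-type library 2 stood apart from its group over all genes: the chi-square per degree of freedom was 55.7 and 62.7 against the other wild-type libraries and 2.26 between those. The 9 luminal epithelial markers, all of them tested, summed to 3562 to 3887 CPM in the wild-type and 3880 to 3948 CPM in the liver-derived libraries. Such sums follow the most abundant markers and can hide opposite changes. At an edgeR adjusted p under 0.05, 4 of the 9 rose and 3 fell, against 17.5% and 21.3% of all genes tested. Of those that fell, 2 did so by 2-fold or more, against 9.32% of all genes. The 11 fibroblast and mural markers summed to 15.3 to 17.8 CPM in the wild-type and 45.6 to 49.2 CPM in the liver-derived libraries, and none of them was at 0 in every library. Most of that rise lay in CSPG4, from 4.45 to 27.5 CPM, and TAGLN, from 6.24 to 15.3 CPM, whose exons overlap PCSK7 on the opposite strand. THY1 and FAP, also on that list, had at most 5 reads in any library, and MFAP5 had 3 to 8. Others had more: PDGFRA 8 to 41 reads per library, ACTA2 49 to 118 and RGS5 49 to 152. The 6 hepatic stellate markers summed to 105 to 141 CPM in the wild-type and 56.0 to 58.6 CPM in the liver-derived libraries, and the 8 hepatocyte markers to 43.3 to 53.9 and 65.6 to 68.8 CPM. Members of these lists also moved in both directions at that threshold. Of 5 tested fibroblast and mural markers, 2 rose and 1 fell. Of 6 tested stellate markers, 1 rose and 2 fell. Of 4 tested hepatocyte markers, 2 rose and 1 fell. The 7 endothelial markers stayed at 1.26 CPM or less in sum, with CDH5 at 0 throughout, and the 7 leukocyte markers summed to 11.5 to 15.7 and 12.2 to 20.2 CPM, highest in liver-derived library 2. Most of the leukocyte sum was LYZ, with 450 to 733 reads per library, while CD3E and MS4A1 were at 0 throughout. The part of such cells in the results below was not tested. In bulk RNA, fewer cells of a type and less RNA per cell cannot be told apart.

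Of the 56 genes, 43 held enough reads to be tested. With edgeR's quasi-likelihood test over 19255 genes, 12 of them rose and 15 fell from wild-type to liver-derived cells at a Benjamini-Hochberg adjusted p under 0.05, against 38.8% of all genes tested (17.5% higher and 21.3% lower). Of these, 6 rose and 10 fell by 2-fold or more, against 4.49% and 9.32% of all genes. The median log2 fold change (liver-derived minus wild-type) was 0.0092 over the 43 genes and -0.0075 over all genes. The CPM values of both groups did not overlap for 29 of the 43, against 54.0% of all genes. Genes such as LUM, COL26A1, COL8A2, COL28A1 and COL10A1 hold enough reads in 1 group only. A gene of that kind had to differ to be tested, so these counts describe the genes and support nothing further.

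**Figure D1:**
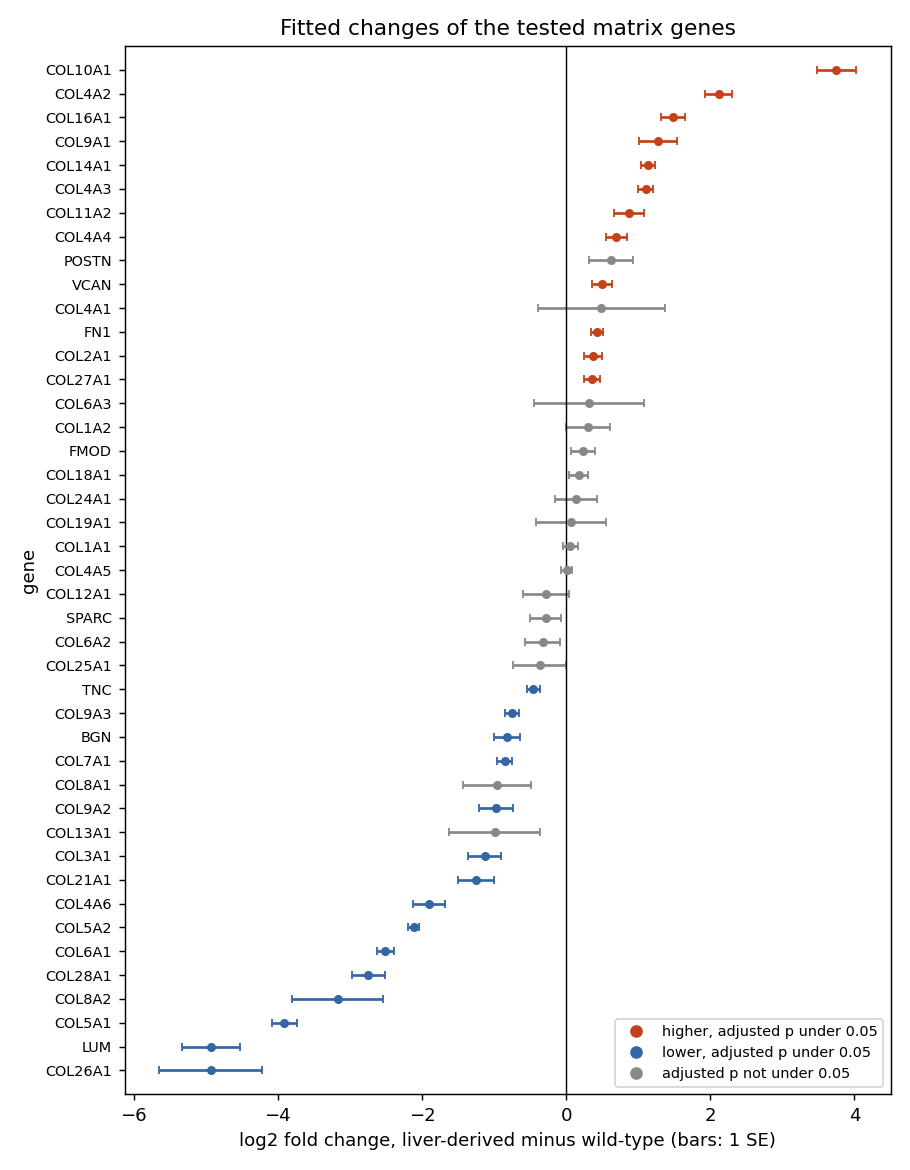
Fitted log2 fold changes of the 43 tested genes, liver-derived minus wild-type, with 1 SE; colour gives the edgeR call (12 higher, 15 lower, 16 not past the threshold). The estimates run from -4.93 for COL26A1 and LUM to 3.75 for COL10A1, and COL4A1 and COL6A3 have the widest errors.

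On the TPM scale, which also divides counts by gene length and so allows genes to be compared, COL9A3 was the most abundant of the 56 genes over all libraries, followed by TNC, FN1, COL14A1 and COL5A2. The order differed between the groups. COL5A2 stood at 19.6 ± 0.279 TPM (SD, n = 3) in the wild-type cells, second to COL9A3 at 33.4 ± 2.63, and at 4.40 ± 0.150 in the liver-derived cells. There COL9A3 (19.4 ± 0.291 TPM) and COL14A1 (18.5 ± 1.04) stood at the top, and the ranges of their libraries overlapped. All collagen chains together summed to 125 ± 2.91 TPM in the wild-type and 91.7 ± 0.293 TPM in the liver-derived libraries. The fibrillar chains gave 37.1 ± 0.594 and 19.3 ± 0.845 of these, and the beaded-filament chains 15.9 ± 0.706 and 3.86 ± 0.722. The type IV chains moved the other way, from 12.0 ± 0.965 to 17.3 ± 1.22 TPM. These sums are given without a test.

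Type V collagen, which co-assembles with the major fibrils and sets where they start and how thick they grow, fell most among the fibrillar chains. COL5A1 (ENSG00000130635; a protein-coding gene at GRCh38 chromosome 9, 134641774 to 134844843, plus strand) was measured at 12.7, 14.7 and 12.8 CPM in wild-type libraries 1 to 3, against 0.708, 1.25 and 0.845 CPM in liver-derived libraries 1 to 3. The lowest wild-type value was thus far above every liver-derived one. The fitted log2 fold change was -3.91 (SE 0.17, edgeR adjusted p = 4.11e-07). COL5A2 (ENSG00000204262; chromosome 2, 189031896 to 189179879, minus strand) stood at 37.8, 40.3 and 38.2 CPM in the wild-type libraries, against 9.21, 9.02 and 8.67 CPM in the liver-derived ones. Both groups were tight and did not overlap, and the log2 fold change was -2.11 (SE 0.08, adjusted p = 1.27e-07). The chains of type V thereby changed in ratio: COL5A2 exceeded COL5A1 4.27 to 4.67 times by TPM in the wild-type libraries and 11.3 to 20.3 times in the liver-derived libraries. COL5A3, the third chain of the type, had 2 to 10 reads per library and was not tested.

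COL3A1, the chain of type III collagen, lies next to COL5A2 on chromosome 2 (188974320 to 189012746, plus strand) and also fell. It stood at 1.67, 1.61 and 1.71 CPM in the wild-type and 0.574, 1.07 and 0.721 CPM in the liver-derived libraries (log2 fold change -1.13, SE 0.22, adjusted p = 0.00371). No liver-derived library reached the wild-type range, although the second came nearest. Over the 12 tested genes within 1 Mb of COL5A2, the median log2 fold change was 0.04, and COL3A1 was 1 of 2 that lay below -1. Around COL5A1 the median was -0.07 over 16 neighbours, of which 4 lay below -1. Of all genes tested, 9.32% were called lower by 2-fold or more, a count that also needs an adjusted p under 0.05. A regional effect was not tested.

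Of the other tested fibrillar chains, 3 rose and 3 did not pass. COL1A1, the main chain of type I collagen, stood at 16.1, 20.4 and 16.1 CPM in the wild-type and 18.5, 18.0 and 18.3 CPM in the liver-derived libraries. These ranges overlapped, and the change was 0.06 (SE 0.11, edgeR adjusted p = 0.687); without wild-type replicate 2 it was 0.18 with an adjusted p of 0.00733. Its partner COL1A2 was much lower per length, at 0.299 ± 0.0369 and 0.378 ± 0.176 TPM against 6.42 ± 0.613 and 6.53 ± 0.0811 for COL1A1, so that both chains of type I were far from equal in either group. Of the chains best known from cartilage, COL11A2 rose by 0.88 and COL2A1 by 0.37 on the log2 scale, and COL27A1 rose by 0.36. In that order they lost their call in 1, 11 and 4 of 16 alternatives, COL11A2 without the third library of both groups (edgeR adjusted p = 0.0861). COL24A1 (0.14) did not pass, and COL11A1, with 3 to 10 reads per library, was not tested.

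**Figure D2:**
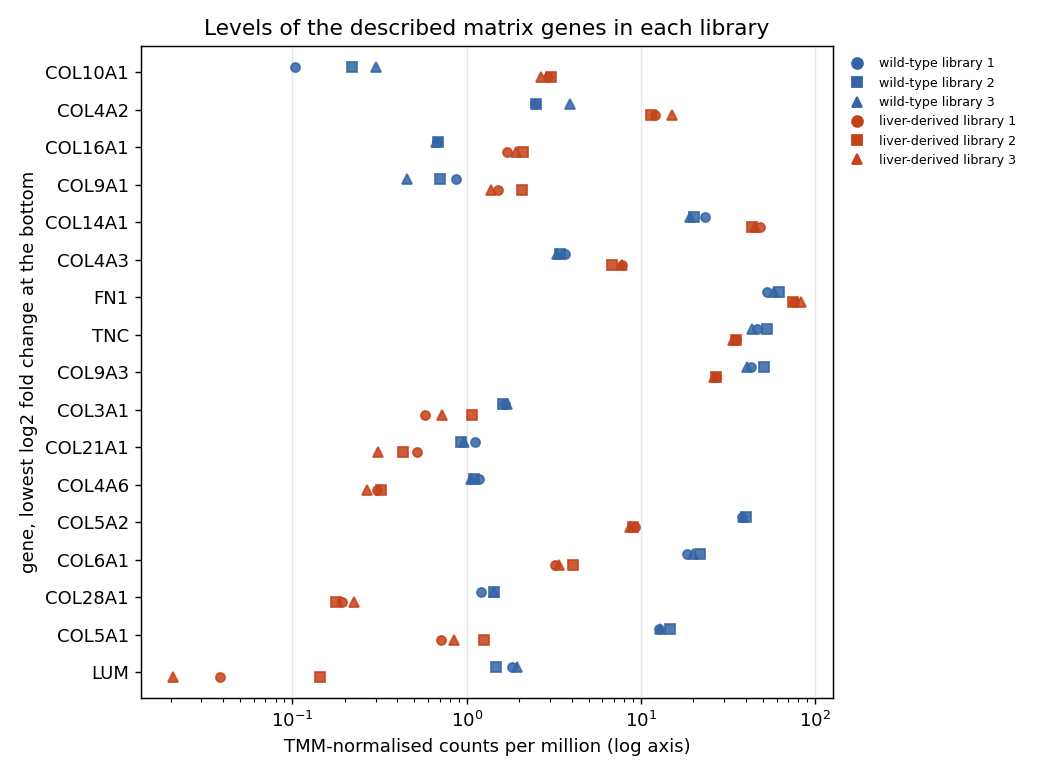
TMM-normalised CPM (log axis) in each library for the 14 genes that changed 2-fold or more with 1 CPM or more in whichever group was higher, and for FN1, TNC and COL9A3, which were among the 5 with the highest mean TPM. Blue marks the 3 wild-type and red the 3 liver-derived libraries; in each of the 17 genes both colours occupy separate ranges.

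Type IV collagen has 6 chains, whose genes lie in 3 head-to-head pairs that are transcribed away from a common promoter region. The chains assemble into networks of fixed composition: COL4A1 with COL4A2 in nearly all basement membranes, COL4A3 with COL4A4 and COL4A5 in the kidney glomerulus and lung, and COL4A5 with COL4A6 in other epithelia. Between the RefSeq starts of COL4A1 and COL4A2 lie 126 bases, between those of COL4A4 and COL4A3 418, and between those of COL4A6 and COL4A5 379. The sequences are shown because the members of a pair start on either side of them, and the RNA of each pair is described below. The first is the whole stretch between the starts of COL4A1 and COL4A2 (chr13:110307158-110307283, plus strand), and the others are the 250 bases before the start of COL4A3 (chr2:227164374-227164623, plus strand) and of COL4A5 (chrX:108439588-108439837, plus strand). All are from RefSeq, GRCh38.p14, read 5′ to 3′ towards the second gene of the pair. Capitals mark 4 motifs searched on either strand. The GC box is spelled GGGCGG and the CCAAT box is spelled as its name. The TATA box is spelled TATAAA. The last is the AP-1-like pattern TGANTCA, where N is any base, so a match need not be an AP-1 site. No marks overlap in the sequences shown.
COL4A1-COL4A2: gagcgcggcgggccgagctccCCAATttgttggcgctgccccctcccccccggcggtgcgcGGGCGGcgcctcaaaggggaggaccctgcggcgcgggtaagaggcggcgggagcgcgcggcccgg
COL4A4-COL4A3: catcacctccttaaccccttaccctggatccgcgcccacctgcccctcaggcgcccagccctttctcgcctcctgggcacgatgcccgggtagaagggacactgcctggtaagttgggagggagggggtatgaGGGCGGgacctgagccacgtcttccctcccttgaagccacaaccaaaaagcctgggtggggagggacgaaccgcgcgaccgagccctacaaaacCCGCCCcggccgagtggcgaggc
COL4A6-COL4A5: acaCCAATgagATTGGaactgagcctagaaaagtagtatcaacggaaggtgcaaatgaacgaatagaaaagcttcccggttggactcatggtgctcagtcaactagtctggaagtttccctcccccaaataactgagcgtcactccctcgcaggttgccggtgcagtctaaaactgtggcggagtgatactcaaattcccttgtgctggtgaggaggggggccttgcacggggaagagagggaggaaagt

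The stretch between COL4A1 and COL4A2 was 80.2% G and C and held 1 GC box and 1 CCAAT. The window before COL4A3 was 66.4% G and C with 2 GC boxes, and the window before COL4A5 was 51.2% G and C with 2 CCAAT and no GC box. None of the 3 held TATAAA or TGANTCA. Over 35116 windows of 250 bases before RefSeq starts, 42.6% held GGGCGG, 32.0% CCAAT, 10.7% TATAAA and 6.57% TGANTCA. Of the 56 matrix genes, 43 had a window, and 23, 13, 10 and 2 of these held the motifs in that order.

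COL4A2 rose while COL4A1, across the shared promoter, did not pass. COL4A2 (ENSG00000134871; chromosome 13, 110305812 to 110513027) stood at 2.45, 2.49 and 3.91 CPM in the wild-type and 12.1, 11.4 and 14.995 CPM in the liver-derived libraries. The groups lay well apart, with a log2 fold change of 2.12 (SE 0.19, edgeR adjusted p = 3.06e-05), or 4.34-fold. The 11 other tested genes within 1 Mb of COL4A2 had a median of 0.31. COL4A1 stood at 0.226, 0.0441 and 0.834 CPM and at 0.394 CPM or less in the first 2 liver-derived libraries, with 1.07 CPM in the third. The third library of each group was the highest for COL4A1, the groups overlapped, and the change was 0.49 (SE 0.88, adjusted p = 0.696). By TPM, COL4A2 exceeded COL4A1 at least 4.40 times in each library, with a ratio that ranged up to 99.1. Exons of COL4A2 overlap COL4A2-AS1, which had at most 15 reads, and COL4A2-AS2, which had 0.

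The pair COL4A3 and COL4A4 rose together. For each of them, the 7 other tested genes within 1 Mb, its partner included, had a median log2 fold change of 0.41. COL4A3, the chain that carries the Goodpasture antigen, stood at 3.66, 3.44 and 3.28 CPM in the wild-type and 7.75, 6.80 and 7.74 CPM in the liver-derived libraries (log2 fold change 1.11, SE 0.10, edgeR adjusted p = 3.63e-05). Its exons overlap MFF-DT on the opposite strand, which had 39 to 83 reads per library beside 156 to 405 for COL4A3. COL4A4 rose from 1.42 ± 0.152 to 2.32 ± 0.144 CPM (0.70, SE 0.15, adjusted p = 0.00474). Neither gene's groups overlapped.

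In the third pair the genes parted. COL4A5, mutated in X-linked Alport syndrome, was the most abundant type IV chain per length and stood at 8.28 ± 0.479 TPM in the wild-type and 8.08 ± 0.477 TPM in the liver-derived cells. Its change was 0.01 (SE 0.08, edgeR adjusted p = 0.938), so it differed by less than the spread between libraries, and its sign turned in 5 of 16 alternatives. COL4A6 stood at 1.17, 1.10 and 1.06 CPM in the wild-type and 0.306, 0.322 and 0.268 CPM in the liver-derived libraries. It fell by 1.90 on the log2 scale (SE 0.22, adjusted p = 1.32e-04) with no overlap. The ratio of COL4A5 to COL4A6 by TPM was 18.6 to 19.9 in the wild-type and 62.2 to 80.2 in the liver-derived libraries.

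**Figure D3:**
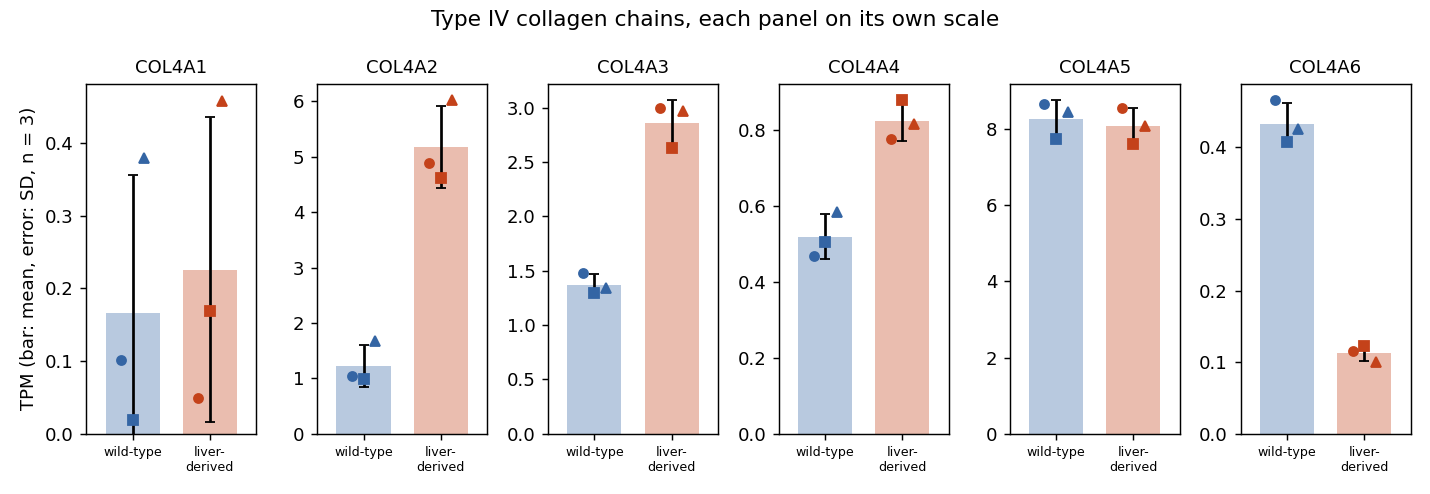
TPM of the 6 type IV chains in each library (circle, square and triangle for libraries 1, 2 and 3), with group means as bars and SD as error (n = 3, cut at 0), each panel on its own axis. COL4A2, COL4A3 and COL4A4 are higher in the liver-derived cells, COL4A6 is lower, COL4A5 is level at about 8.28 and 8.08 TPM, and for COL4A1 the triangles of both groups stand above the rest.

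Type VI collagen forms beaded filaments around cells and between basement membrane and stroma, from chains encoded by COL6A1, COL6A2 and COL6A3. COL6A1 (ENSG00000142156; chromosome 21, 45981737 to 46005050, plus strand) stood at 18.2, 21.8 and 19.8 CPM in the wild-type and 3.20, 4.08 and 3.38 CPM in the liver-derived libraries. Every liver-derived value was far below the wild-type range, and the log2 fold change was -2.51 (SE 0.12, edgeR adjusted p = 6.19e-07), or 5.68-fold lower. This fall went against its chromosome: the median log2 fold change of the 225 tested genes of chromosome 21 was 0.54, and that of 24 tested genes within 1 Mb of COL6A1 was 0.50. COL6A2, which lies beside COL6A1 and is transcribed in the same direction, stood at 2.08 ± 0.317 and 1.71 ± 0.552 CPM (-0.32, SE 0.24, adjusted p = 0.335), and without the second library of both groups the change was -0.59 (adjusted p = 0.0133). COL6A1 exceeded COL6A2 by TPM 7.77 to 12.6 times in the wild-type and 1.80 to 2.95 times in the liver-derived libraries. COL18A1, the third tested collagen of chromosome 21 and the precursor of endostatin, was at 1.87 ± 0.158 and 2.10 ± 0.0232 CPM (0.17, adjusted p = 0.343); its exons share 1401 bases with SLC19A1 on the opposite strand, which had 1701 to 3358 reads.

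COL28A1, related to the type VI chains by its von Willebrand factor A domains, fell from 1.21, 1.43 and 1.44 CPM to 0.191, 0.179 and 0.227 CPM. The groups did not overlap (log2 fold change -2.74, SE 0.23, edgeR adjusted p = 1.95e-05). With 10, 5 and 11 reads in liver-derived libraries 1 to 3, COL28A1 held enough reads in the wild-type group only. It thus had to differ to be tested. COL6A3, the longest type VI chain, stood at 0.947, 0.859 and 1.99 CPM in the wild-type and 0.364, 0.430 and 3.77 CPM in the liver-derived libraries. Again the third library was the highest in each group, and the change over all libraries was 0.32 (SE 0.76, adjusted p = 0.775).

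COL10A1, the type X collagen of hypertrophic growth-plate cartilage, rose most of all. It stood at 0.103, 0.220 and 0.303 CPM in the wild-type libraries (5, 10 and 16 reads), against 2.93, 3.04 and 2.68 CPM in the liver-derived ones (153, 85 and 130 reads). The liver-derived libraries agreed closely and lay far above the wild-type ones, with a log2 fold change of 3.75 (SE 0.27, edgeR adjusted p = 7.67e-06), or 13.5-fold. The 13 tested genes within 1 Mb had a median of 0.11, and none changed 2-fold. The 250 bases before the start of COL10A1 (chr6:116158773-116159022, minus strand) and of COL5A1 (chr9:134641553-134641802, plus strand), the collagens with the largest rise and the largest well-covered fall, are shown to set their promoters side by side, from RefSeq, GRCh38.p14, with capitals as above.
COL10A1: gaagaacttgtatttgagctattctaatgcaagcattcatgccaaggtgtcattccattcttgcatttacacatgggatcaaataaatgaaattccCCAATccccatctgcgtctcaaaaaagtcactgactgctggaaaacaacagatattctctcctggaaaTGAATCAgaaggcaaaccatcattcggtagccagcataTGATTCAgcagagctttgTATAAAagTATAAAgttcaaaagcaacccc
COL5A1: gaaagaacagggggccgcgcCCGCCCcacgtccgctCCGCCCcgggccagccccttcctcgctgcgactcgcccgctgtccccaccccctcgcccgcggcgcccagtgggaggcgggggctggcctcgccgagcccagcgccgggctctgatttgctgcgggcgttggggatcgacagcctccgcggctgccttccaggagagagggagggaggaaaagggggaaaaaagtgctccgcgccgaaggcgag

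The COL10A1 window was 39.2% G and C and held 2 TATAAA, 2 TGANTCA and 1 CCAAT. The middle base was A in 1 TGANTCA match and T in the other. The COL5A1 window was 74.0% G and C and held 2 GC boxes and none of the other motifs. These are matches of letters and say nothing of what is bound there.

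Of the relatives of COL10A1, COL8A2 fell from 20, 26 and 18 reads to 5, 1 and 0 reads, a ratio of summed normalised reads of 9.36 with an exact 95% interval of 4.07 to 26.4 that covers counting error only. COL8A1, at 0.452 ± 0.211 and 0.227 ± 0.107 CPM, did not pass (edgeR adjusted p = 0.143), but fell by 1.29 without wild-type replicate 1 (adjusted p = 0.0446). COL7A1, which forms the fibrils that anchor epithelium to the tissue beneath, was far more abundant. It stood at 27.7, 34.9 and 29.02 CPM in the wild-type and 17.2, 17.5 and 16.2 CPM in the liver-derived libraries, without overlap, and fell by 0.85 on the log2 scale (SE 0.10, adjusted p = 1.98e-04).

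Among the fibril-associated collagens, 3 rose and 3 fell of 8 tested, against 17.5% of all genes called higher and 21.3% called lower. COL14A1, which binds fibrils through decorin, stood at 23.3, 20.0 and 19.1 CPM in the wild-type and 48.4, 43.3 and 45.2 CPM in the liver-derived libraries (log2 fold change 1.13, SE 0.10, edgeR adjusted p = 2.16e-05). COL16A1 rose from 0.679, 0.683 and 0.664 CPM to 1.70, 2.11 and 1.92 CPM (1.49, SE 0.17, adjusted p = 1.32e-04). COL21A1 fell from 1.11, 0.926 and 0.967 CPM to 0.517, 0.430 and 0.309 CPM (-1.25, SE 0.25, adjusted p = 0.00358). In each of these 3 genes the groups were separate, with COL21A1 and COL16A1 at the low end of what could be measured.

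The chains of type IX collagen, which in cartilage form a heterotrimer on type II fibrils, moved in opposite directions. COL9A1 stood at 0.865, 0.705 and 0.455 CPM in the wild-type and 1.51, 2.08 and 1.38 CPM in the liver-derived libraries and rose by 1.27 (SE 0.26, edgeR adjusted p = 0.00482). COL9A3 fell from 42.6, 51.1 and 40.7 CPM to 26.8, 26.9 and 26.3 CPM (-0.75, SE 0.10, adjusted p = 3.26e-04), and COL9A2 fell by 0.97. By TPM, COL9A3 exceeded COL9A1 at least 71.9 times in the wild-type libraries and at most 27.9 times in the liver-derived ones. COL9A3 shares 45 exonic bases with TCFL5 on the opposite strand, which had 535 to 1206 reads.

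COL26A1, a short collagen with an EMI domain, was close to lost, with 33, 47 and 37 reads in the wild-type and 0, 3 and 0 reads in the liver-derived libraries. The ratio of summed normalised reads was 34.2, with an exact 95% interval of 11.4 to 168 for counting error only (edgeR adjusted p = 6.17e-04). Transmembrane collagens were low throughout. COL13A1 and COL25A1 did not pass with all libraries, and COL17A1, the hemidesmosome collagen BP180, and COL23A1 had at most 11 reads per library and were not tested. COL15A1, COL20A1, COL22A1 and COL6A6 also had fewer than 10 reads in each library.

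Lumican was the one small leucine-rich proteoglycan with a large change. LUM (ENSG00000139329; chromosome 12, 91102629 to 91111831, minus strand) had 88, 67 and 103 reads in the wild-type and 2, 4 and 1 reads in the liver-derived libraries, or 1.81, 1.48 and 1.95 against 0.0383, 0.143 and 0.0206 CPM. Every liver-derived library was near the limit of detection. The fitted log2 fold change was -4.93 (SE 0.40, edgeR adjusted p = 1.81e-05), and the ratio of summed normalised reads was 32.3, with an exact 95% interval of 15.5 to 81.2 for counting error only. Its neighbours in the cluster on chromosome 12 were hardly detected: DCN, the gene of decorin, had 7 to 19 reads in the wild-type and 3 to 10 in the liver-derived libraries, and EPYC at most 1.

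BGN, the gene of biglycan, fell from 1.96 ± 0.356 to 1.12 ± 0.0839 CPM, a log2 change of -0.82 (SE 0.18) with an edgeR adjusted p of 0.00678; without the third library of both groups it was -0.66 (adjusted p = 0.0908). FMOD, the gene of fibromodulin, stood at 2.14 ± 0.218 and 2.54 ± 0.464 CPM (0.23, adjusted p = 0.316). By TPM, FMOD and BGN were the most abundant of the class in the liver-derived cells, at 2.70 ± 0.491 and 1.604 ± 0.124, whereas BGN, FMOD and LUM stood within 2.11 to 2.89 TPM of each other in the wild-type cells. PRELP, ASPN and OGN had at most 8 reads in any library. Of 8 related leucine-rich genes outside the rule, 4 were tested: CHADL, which overlaps L3MBTL2 on the opposite strand, fell by 0.51 (adjusted p = 0.0398), PODNL1, named after its values were seen, rose by 1.29 (adjusted p = 0.0498), and CHAD and TSKU did not pass. PODNL1 had 3 to 22 reads per library and shares 190 exonic bases with DCAF15 on the opposite strand, which had 1418 to 2943 reads. CHADL lost its call in 10 of 16 alternatives and PODNL1 in 9 of 15. TSKU stood at 0.33 without wild-type replicate 2 (edgeR adjusted p = 1.65e-11).

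The glycoproteins changed by less than 2-fold. FN1, the gene of fibronectin, which integrins bind and around which collagen fibrils are laid down, stood at 52.7, 61.7 and 58.1 CPM in the wild-type and 75.4, 74.1 and 83.0 CPM in the liver-derived libraries (log2 fold change 0.43, SE 0.09, edgeR adjusted p = 0.00365). TNC, the gene of the anti-adhesive glycoprotein tenascin C, stood at 46.2, 52.9 and 43.5 CPM against 33.8 to 35.3 CPM (-0.46, SE 0.09, adjusted p = 0.00329). The groups did not overlap in either gene, and the directions were opposite. Without the third library of both groups FN1 lost its call (0.39, adjusted p = 0.0652). VCAN, the gene of the large proteoglycan versican, rose from 5.66 ± 0.644 to 8.09 ± 1.33 CPM (0.50, adjusted p = 0.0181), and this call was lost without wild-type replicate 3 (adjusted p = 0.0521) or liver-derived replicate 2 (0.0561). SPARC, a collagen-binding glycoprotein, and POSTN, the gene of periostin, did not pass (-0.28 and 0.62, adjusted p = 0.337 and 0.144).

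Some of the low genes followed a library rather than a group. COL6A3 had 46, 39 and 105 reads in wild-type libraries 1 to 3 and 19, 12 and 183 in liver-derived libraries 1 to 3, and COL4A1 had 11, 2 and 44 against 6, 11 and 52. COL13A1 had 19, 14 and 33 against 3, 3 and 23. A search added after these values were seen looked for genes at least 3 times as high by CPM in a library as in the mean of its group's others, for the same replicate number in both groups, with at least 10 reads in each. It found 11 genes for the third libraries (STC1, PRSS2 and COL4A1 among them), 2 for the second and 0 for the first. COL4A1 was the only matrix gene found. COL6A3 and COL13A1 missed the limit, at 2.20 and 1.79 times in wild-type library 3. Without the third library of both groups, COL6A3 fell by 1.21 (edgeR adjusted p = 0.0317) and COL13A1 by 2.17 (adjusted p = 0.0294), COL4A1 stood at 0.70 (adjusted p = 0.597), and COL4A2 kept its rise at 2.25. In that fit 8 of the 43 genes rose and 16 fell, against 24.5% of all genes called. What sets these libraries apart was not tested.

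Liver-derived library 2 showed another pattern. Its total was 0.552 times the mean of the other liver-derived libraries, yet COL1A2 had 40, 51 and 49 reads in liver-derived libraries 1 to 3, COL3A1 30, 30 and 35, POSTN 28, 28 and 26, SPARC 170, 156 and 160, and COL5A1 37, 35 and 41. Raw reads of these 5 genes thus did not drop with depth. Of 23 tested matrix genes with a mean of 15 to 300 reads in the liver-derived libraries, these 5 had a CPM in library 2 at least 1.5 times the mean of the others, against 7.83% of 6577 genes in that range, with limits chosen after the values were seen. Without liver-derived replicate 2, COL5A1 fell by 4.09 and COL3A1 by 1.34 (edgeR adjusted p = 2.64e-06 and 0.00159), SPARC fell by 0.53 (adjusted p = 0.0383), and COL1A2 stood at -0.05 (adjusted p = 0.898). The cause was not tested.

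**Figure D4:**
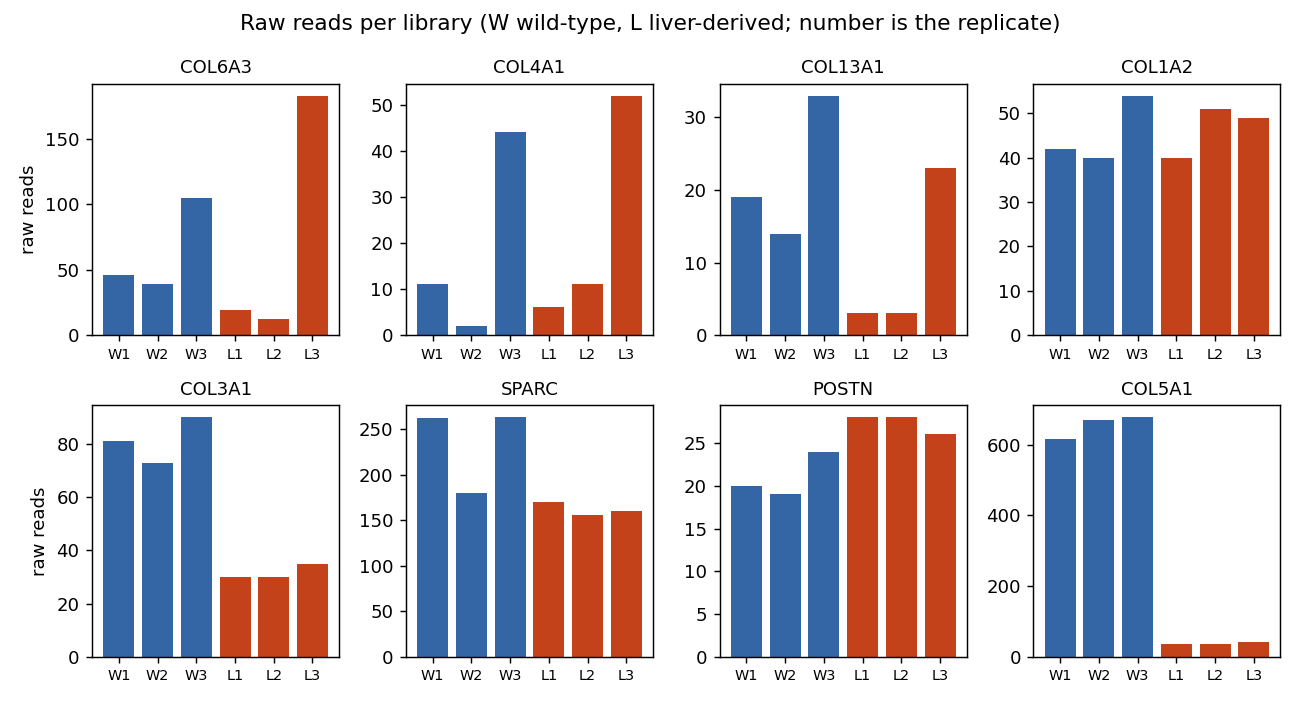
Raw reads of 8 genes in wild-type (W1 to W3, blue) and liver-derived (L1 to L3, red) libraries, without correction for depth. COL6A3, COL4A1 and COL13A1 are highest within each group in W3 and L3, and COL1A2, COL3A1, SPARC, POSTN and COL5A1 have about as many reads in L2 as in L1 and L3 although L2 had 28395265 counts in all.

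Genes that make, process and cross-link collagen moved in both directions or did not pass. Of 35 on the list, 32 were tested, 7 rose, 12 fell and 13 did not pass, against 38.8% of all genes called; the median log2 fold change was -0.05. The largest changes were falls in genes of proteases. TLL1 and TLL2, relatives of BMP1, fell from 4.38 ± 0.351 to 0.783 ± 0.151 CPM (-2.48, edgeR adjusted p = 5.05e-06) and from 2.43 ± 0.172 to 0.562 ± 0.107 CPM (-2.12). ADAMTS3 fell from 6.89 ± 0.737 to 2.77 ± 0.233 CPM (-1.30). P4HA1, a catalytic subunit of the prolyl 4-hydroxylase that stabilises the triple helix, rose from 36.9 ± 6.01 to 88.5 ± 2.38 CPM (1.26, adjusted p = 3.69e-05).

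Further genes of this list are named after their values were seen. MIA3, which loads bulky procollagen into transport vesicles, rose by 1.15 on the log2 scale. The enhancers of procollagen cleavage, PCOLCE and PCOLCE2, fell by 0.86 and 0.38, and PCOLCE2 lost its call without liver-derived replicate 2 (edgeR adjusted p = 0.0708) or the third library of both groups (0.111). All 4 tested lysyl oxidases, the copper enzymes that cross-link collagen and elastin, fell: LOX by 0.81, LOXL1 by 0.95, LOXL2 by 0.73 and LOXL3 by 0.53 (adjusted p from 3.85e-04 to 0.0121), against 21.3% of all genes called lower. They were singled out for this, so the count supports nothing further. Each of these 4 overlaps another gene with reads: SRFBP1 for LOX, LOXL1-AS1 for LOXL1, ENTPD4 for LOXL2, and HTRA2 and DOK1 for LOXL3. SERPINH1, the collagen chaperone HSP47, stood at 28.6 ± 2.73 and 30.4 ± 0.335 CPM (0.09, adjusted p = 0.464), and without wild-type replicate 2 the change was 0.16 (adjusted p = 0.00338). The number of list members that rose was 12 without wild-type replicate 2, and 3 without liver-derived replicate 1 or without liver-derived replicate 3.

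**Figure D5:**
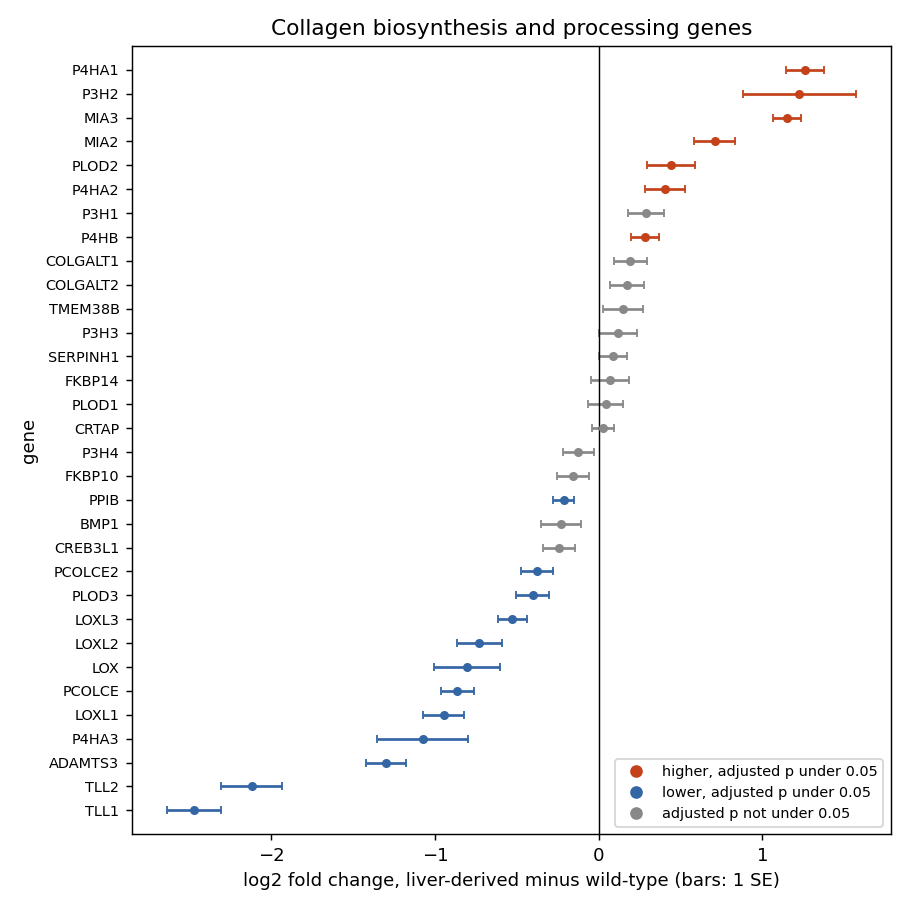
Fitted log2 fold changes with 1 SE for the 32 tested genes of collagen biosynthesis, coloured by the edgeR call. TLL1 at -2.48 and TLL2 at -2.12 stand lowest, P4HA1 at 1.26 highest, and the 4 lysyl oxidases lie between -0.95 and -0.53.

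Of 25 matrix receptor genes, 20 were tested, 4 rose, 4 fell and 12 did not pass, against 38.8% of all genes called; the median was -0.04. ADGRG1, an adhesion receptor that binds type III collagen, fell from 14.9 ± 2.43 to 2.32 ± 0.283 CPM, a log2 change of -2.69 with an edgeR adjusted p of 1.74e-06. The integrin genes ITGB5 and ITGA9, the latter overlapping ITGA9-AS1 on the opposite strand, fell by 0.80 and 0.73. DDR2, a receptor tyrosine kinase for fibrillar collagen, rose from 0.909 ± 0.182 to 1.83 ± 0.550 CPM (1.01, adjusted p = 0.0122), a call lost without liver-derived replicate 3 (adjusted p = 0.0518) or the third library of both groups (0.106). The latter also ended the call of ITGA9 (adjusted p = 0.102). The epithelial collagen receptor DDR1, named after its values were seen, stood at 405 CPM in both groups (edgeR adjusted p = 0.991), and without wild-type replicate 2 its change was 0.11 (adjusted p = 3.58e-05). Without wild-type replicate 2, 7 members rose and 9 fell, and without liver-derived replicate 2 or replicate 3, 2 rose.

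TGF-beta signalling is the best known inducer of fibrillar collagen genes in fibroblasts. Of 30 genes on that list, 29 were tested, 11 rose, 9 fell and 9 did not pass, against 38.8% of all genes called; the median was -0.03. INHBA, the activin A subunit, rose by 5.77, BAMBI, a decoy receptor of the family, by 2.21, and CCN2, a matricellular target of the pathway, by 2.20 on the log2 scale. LTBP2, a matrix protein of the latent TGF-beta binding family, fell from 12.5 ± 0.774 to 2.23 ± 0.444 CPM (-2.47, edgeR adjusted p = 1.83e-06). Named after their values were seen, TGFB1, which overlaps HNRNPUL1 on the opposite strand, fell from 34.4 ± 4.19 to 7.70 ± 1.37 CPM (-2.17), and the receptor gene TGFBR1 rose from 7.47 ± 1.22 to 18.5 ± 1.92 CPM (1.30). HNRNPUL1 had 10950 to 20786 reads per library beside 259 to 1778 for TGFB1. The 9 tested fibrillar chains moved in both directions. Of these chains, COL5A1, COL5A2 and COL3A1 fell, 3 rose, and 3 did not pass, COL1A1 and COL1A2 among them. No test of a link between TGFB1 and the collagens was made.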

How the data were processed

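RNA was polyA-selected and sequenced as paired reads, per the labels' protocols. The submitters' processing notes list Trimmomatic 0.36, STAR 2.5.2b, Subread 1.5.2 (featureCounts) and the build GRCh38. Strand setting and annotation release: not given in the sources used here. The authors deposited raw counts per gene and a table of TPM. TPM recomputed from the counts differed from the deposited values by at most 4.82e-05 (relative), and 391182 rows of that table without a gene were left out; in those rows 1 column, used as "other" for its mixed content, holds spreadsheet errors.

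Counts were tested with edgeR 4.0.16 in R 4.3.3: filterByExpr, TMM factors, robust quasi-likelihood fit, group as the only term, and Benjamini-Hochberg adjustment over 19255 genes, with a threshold of 0.05. CPM are TMM-normalised. The common biological coefficient of variation was 9.57%. Values are mean ± SD of 3 libraries. The fitting step was tested on simulated data. Alternatives were other scaling factors, other low-count filters, DESeq2 1.42.0, limma-voom (limma 3.58.1), the replicate number as a block and each library left out; leaving out the second or the third library of both groups was added after the data were seen.

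The members and lists were chosen with earlier results of these data known. Genes given with every library were those changed at least 2-fold with an adjusted p under 0.05 and 1 CPM or more in whichever group was higher, and the 5 with the highest mean TPM; from other lists up to 4 of the largest changes past the threshold with at least 1 CPM were named. Overlaps are of exons in the deposited coordinates; where the counting ignored strand, overlapping genes cannot be told apart. Intervals and limits of detection cover counting error only.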

Additional observations from a re-analysis of the deposited data

How the results depend on the processing

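Of the 27 matrix genes past the threshold, 21 kept direction and call in all of the 16 alternatives in which they were tested, among them all 14 that changed at least 2-fold with at least 1 CPM; none of the 27 changed direction. Of the 16 not past it, 5 kept direction and side of the threshold in every alternative in which they were tested; COL6A2, COL8A1, COL13A1, COL1A1, SPARC and COL6A3 passed it in at least 1. The number of matrix genes that rose ranged from 8 to 13 and of those that fell from 12 to 17. The labels do not say whether replicate numbers pair the libraries. Deviations from the group means correlated at -0.0084, 0.0092 and 0.0722 for numbers 1, 2 and 3. Unlike numbers gave -0.0398 to 0.0304. Correlations over all tested genes cannot tell whether some libraries were prepared together. With the replicate number as a block, 11 matrix genes rose and 15 fell, against 12 and 15, and 3169 and 3883 of all genes.

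Leaving out 1 library at a time gave 2432 to 5714 genes higher and 3168 to 6156 lower over all genes, both highest without wild-type replicate 2; 1 to 2 small leucine-rich and glycoprotein genes higher; 3 to 12 biosynthesis genes higher; and 2 to 7 receptor genes higher and 4 to 9 lower. Without the third library of both groups 1916 genes were higher over all genes, with 1 small leucine-rich or glycoprotein gene, 3 biosynthesis genes and 1 receptor gene higher. Without the second library of both groups 5759 were higher over all genes, 12 biosynthesis genes and 7 receptor genes were higher, and 9 receptor genes were lower.

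Genes not past the threshold changed sign as follows (log2 fold change, with the range over leaving out 1 library at a time). COL19A1, at 0.07, ranged from -0.26 (without wild-type replicate 2) to 0.41 and was -0.0366 without the second library of both groups. COL4A1, at 0.49, ranged from -0.75 (without liver-derived replicate 3) to 1.93. COL4A5, at 0.01, ranged from -0.0306 to 0.0656 and was -0.0031 with upper-quartile factors, -0.0438 with library size alone, -0.0023 with no filter and -0.0010 without the third library of both groups. COL6A3, at 0.32, ranged from -1.70 (without liver-derived replicate 3, edgeR adjusted p = 0.0266) to 0.83 and was -0.39 with limma-voom, -0.0824 with the replicate block and -1.21 without the third library of both groups. COL1A1, at 0.06, ranged from -0.00072 to 0.18. COL1A2, at 0.30, ranged from -0.0482 (without liver-derived replicate 2) to 0.57 and was -0.0854 without the second library of both groups. COL24A1, at 0.14, ranged from -0.14 to 0.34 and was -0.19 without the second library of both groups. DDR1, at -0.0016, ranged from -0.0635 to 0.11 (without wild-type replicate 2) and was 0.0089 with RLE factors, 0.0089 with DESeq2, 0.0084 with limma-voom, 0.0062 with the replicate block and 0.14 without the second library of both groups. The cause was not tested. Genes under 1 CPM rest on few reads, which limits their precision.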
